A study of Mus musculus with 6 samples.

Results

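The 8 genes described here encode transcription factors and cofactors that direct which contractile programme a muscle fibre adopts: Six4, Eya1, Tbx1, Tbx15, Sox6, Prox1, Maf and Mafa. They were taken by gene symbol from the 19458 genes listed for each of 6 RNA-seq libraries, and each symbol matched 1 row. Of the 8, Tbx1 was chosen by its measured level, because it was higher in every knockout library than in every wild-type library, so its difference between genotypes is given as a description without a test. The other 7 were listed for their known roles. The libraries came from the gastrocnemius, the large calf muscle, of C57BL/6 mice aged 9 weeks, with 3 libraries from tmem182-/- mice, which lack the muscle membrane protein gene Tmem182, and 3 from wild-type mice. The labels name no promoter-driven transgene and do not say whether each library is a separate animal, so each p-value reflects the spread between these libraries alone, part of which may be technical.

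Adult limb muscle is a mosaic of slow oxidative fibres, which use the myosin heavy chain Myh7, and fast fibres that use Myh2, Myh1 or Myh4 in order of increasing speed and glycolytic metabolism. In mouse muscle, homeodomain proteins of the sine oculis family, such as Six4, with their Eya cofactors switch on fast glycolytic genes, and the T-box factor Tbx15 is found mainly in glycolytic fibres. Sox6 represses slow-fibre genes, Prox1 is needed for the slow programme, and the large Maf proteins drive Myh4, the myosin of the fastest fibres. Tbx1 is best known for its part in forming the muscles of the head and pharynx.

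Levels of the 8 genes spanned from under 1 to about 100 FPKM (read fragments scaled for transcript length and sequencing depth). The order of genes on this scale depends on the transcript length used for each, which for Mafa was shorter than its annotated transcript. In the knockout libraries the mean order was Maf, Tbx15, Mafa, Sox6, Eya1, Tbx1, Six4 and Prox1, from 83.0 FPKM for Maf to 0.94 FPKM for Prox1. In wild type it was Maf, Tbx15, Mafa, Sox6, Eya1, Six4, Tbx1 and Prox1, from 87.8 to 0.743 FPKM. Neighbours whose library values overlapped within the knockout were Maf and Tbx15, Mafa and Sox6, Eya1 and Tbx1, and Tbx1 and Six4. Within wild type the overlapping neighbours were Tbx15 and Mafa, and Tbx1 and Prox1. Tbx1 thus stood above Six4 by its mean in the knockout, with overlapping values, and below it in every wild-type library.

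**Figure D1:**
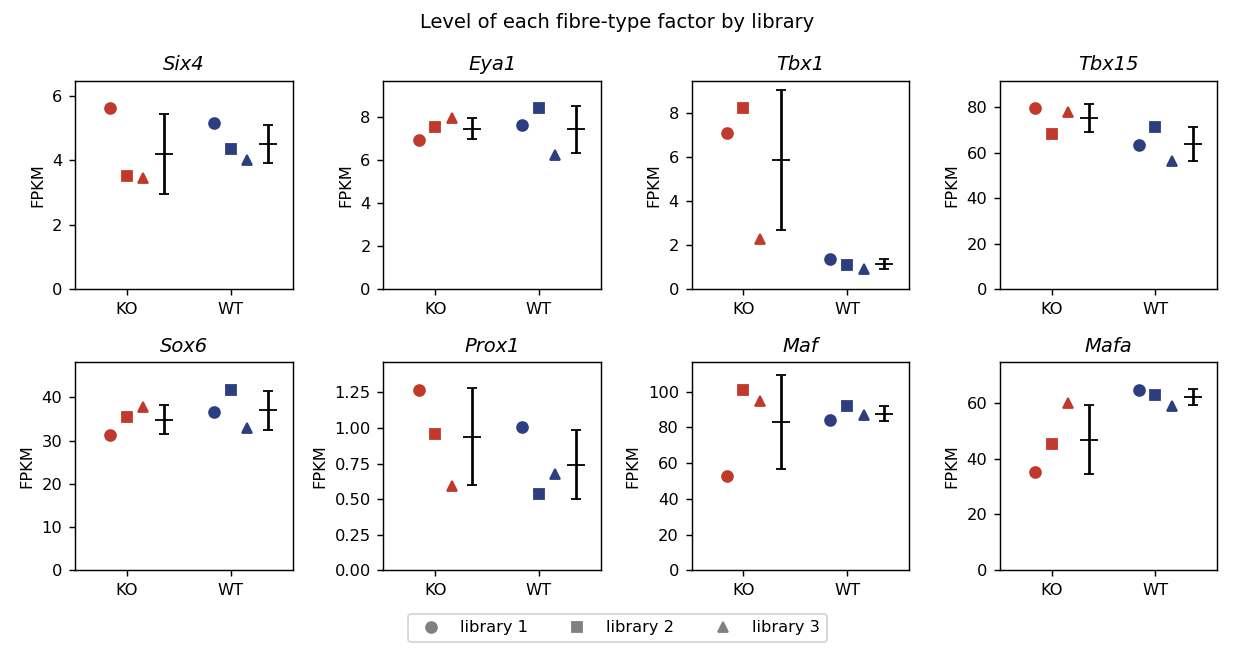
FPKM of each fibre-type factor in the 3 knockout (KO, left) and 3 wild-type (WT, right) libraries; each point is 1 library, its shape gives the library number, and the bar is the mean with the SD (n = 3). Knockout values of Tbx1 lie between 2.26 and 8.22 FPKM, above the wild-type values of 0.9 to 1.37 FPKM, while the groups overlap for the other 7 genes.

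The libraries held 16212341 to 18672630 expected counts. Tmem182 was at 6.23, 4.30 and 2.17 FPKM in knockout libraries 1, 2 and 3, against 147.48, 121.39 and 120.97 FPKM in wild-type libraries 1, 2 and 3. For knockout libraries 2 and 3 the source field names a different Tmem gene each, whereas the genotype field of all 3 gives tmem182-/-. Muscle fibre markers were high in every library, with 6 of 6 markers summing to 73641 to 98060 FPKM in knockout libraries, against 91220 to 103857 FPKM in wild-type ones. The 6 markers of cultured myoblasts and myotubes summed to 15.6 to 33.6 FPKM in knockout libraries, highest in library 1, against 15.2 to 22.9 FPKM in wild-type ones. Of these sums Myod1 made up most, at 11.69 to 24.96 FPKM. Myog was at 1.84 to 3.25 FPKM, Myh3 at 0.19 to 2.98 FPKM and Myh8 at 0.59 to 2.64 FPKM. Mymk and Mymx, genes of fusing myoblasts, did not exceed 0.57 FPKM. Knockout library 1 stood apart, with a scaling factor of 1.19 against 0.933 to 1.04 in the other 5, so its FPKM values read high relative to the scaled counts used in the tests. Of 12774 genes tested with edgeR's quasi-likelihood test, 0.00783% were called at an adjusted p of 0.05, namely Tmem182, and 3.55% had an unadjusted p under 0.05. Among the factors, 0 of the 7 tested were called by edgeR and 0 by the DESeq2 Wald test, which called 0.047% of all genes, and 0 had an unadjusted p under 0.05 in edgeR. The adjusted p was 0.994 for each of the 7.

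Six4, a homeodomain activator of the fast programme, differed between genotypes by less than its libraries allow to be told apart. The gene lies on the minus strand of chromosome 12 at 73099609 to 73113456 (GRCm38). It was at 5.61, 3.51 and 3.45 FPKM in knockout libraries 1, 2 and 3, against 5.14, 4.35 and 4.01 FPKM in wild-type libraries 1, 2 and 3. The groups overlapped because knockout library 1 was the highest of all 6 libraries on this scale, while knockout libraries 2 and 3 were the lowest. Fitted to scaled counts, its log2 fold change was -0.18 (SE 0.13, 95% interval -0.49 to 0.12).

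Eya1, a cofactor and phosphatase that works with Six4 (chromosome 1, 14168954 to 14310235, minus strand), was nearly level between genotypes. Knockout libraries 1, 2 and 3 had 6.92, 7.51 and 7.93 FPKM, and wild-type libraries 1, 2 and 3 had 7.62, 8.40 and 6.22 FPKM. All 3 knockout values fell inside the wild-type range. Its log2 fold change was -0.05 (SE 0.16, 95% interval -0.43 to 0.33), and it was 0.09 without knockout library 1, 0.07 without wild-type library 2 and 0.01 or 0.02 when fitted to FPKM.

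In the network of sine oculis, Eya and Dach genes around them, 10 of 12 listed genes were tested and 0 were called in either direction. On the scaled counts 7 had a log2 fold change below 0 and 3 above it, and the median was -0.07 against 0.0046 over all genes tested. Eya2 had a log2 fold change of -0.63 (SE 0.28), Six5 of -0.40 (SE 0.20) and Eya3 of -0.16 (SE 0.11). Six2, named after its values were seen, varied most among the genes of this network with a mean above 1 FPKM, at 2.43, 26.12 and 20.23 FPKM in knockout libraries 1, 2 and 3 and 6.78, 23.19 and 9.5 FPKM in wild-type libraries 1, 2 and 3. Its 10.7-fold range ran across both genotypes, with knockout library 1 the lowest, and its log2 fold change was 0.32 (SE 0.81).

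Tbx1, a T-box factor, was the only one of the 8 genes whose genotypes did not overlap, which is why it was picked. It lies on the minus strand of chromosome 16 at 18580979 to 18590671, with 4 distinct annotated transcript starts and no overlapping annotated gene. Its level was 7.11, 8.22 and 2.26 FPKM in knockout libraries 1, 2 and 3, against 1.37, 1.11 and 0.90 FPKM in wild-type libraries 1, 2 and 3. These levels rest on 205, 263 and 73 counts in the knockout and 44, 38 and 29 counts in wild type. Knockout libraries 1 and 2 were far above the rest, whereas knockout library 3 lay closer to wild-type library 1 than to the other knockout libraries. Knockout libraries averaged 5.86 ± 3.17 FPKM against 1.13 ± 0.24 FPKM for wild-type libraries (SD, n = 3 each), a ratio of 5.20. On counts the log2 fold change was 2.27, and it ran from 1.85 without knockout library 2 to 2.63 without knockout library 3. Over all genes tested, 9.18% had genotypes that did not overlap, 4.67% with every knockout library higher and 4.51% with every knockout library lower.

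The pooled SD of Tbx1 within genotypes was 0.67 on the scale of log2 CPM, a value that 4.8% of all genes tested reached. Its SD was 0.92 in the knockout and 0.23 in wild type (n = 3 each).

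RefSeq gives Tbx1 a pair of start windows on GRCm38.p6, shown here because Tbx1 is the factor chosen for its level and because its implied transcript length, given further on, was not the same in all libraries. Each window runs 5′ to 3′ from 250 bases before to 50 bases after an annotated start. Capitals mark matches, on either strand, to any of 4 motifs. The T-box core searched for was AGGTGT. The SOX site was written as AACAAT. For the large Maf proteins the core letters TGCTGA were used. A TATA box was taken to be TATAAA. In the windows printed no 2 matches overlap.
Tbx1 upstream start (chr16:18590622-18590921, minus strand): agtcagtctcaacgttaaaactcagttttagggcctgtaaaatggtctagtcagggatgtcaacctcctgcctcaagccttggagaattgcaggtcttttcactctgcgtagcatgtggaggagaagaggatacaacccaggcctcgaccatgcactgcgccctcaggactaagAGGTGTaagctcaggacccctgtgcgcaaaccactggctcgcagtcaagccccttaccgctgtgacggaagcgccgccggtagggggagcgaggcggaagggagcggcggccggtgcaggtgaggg
Tbx1 inner start (chr16:18588850-18589149, minus strand): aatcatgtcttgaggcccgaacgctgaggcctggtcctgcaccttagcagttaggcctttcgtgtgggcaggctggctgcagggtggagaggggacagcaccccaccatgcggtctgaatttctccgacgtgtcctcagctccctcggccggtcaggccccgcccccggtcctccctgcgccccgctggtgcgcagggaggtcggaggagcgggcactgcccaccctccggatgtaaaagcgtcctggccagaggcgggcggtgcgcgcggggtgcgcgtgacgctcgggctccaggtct
The upstream window holds 1 T-box core, whose first base is at position -76 counted from the start, and the inner window holds none of the 4 motifs. A T-box core occurs in 13.7% of the 32851 RefSeq start windows of the same length. GC content was 58.3% in the upstream window and 69.0% in the inner one.

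Tbx15, the T-box factor of glycolytic fibres (chromosome 3, 99240381 to 99354259, plus strand), was far more abundant than Tbx1. It was at 79.7, 68.21 and 78.15 FPKM in knockout libraries 1, 2 and 3, against 63.44, 71.33 and 56.51 FPKM in wild-type libraries 1, 2 and 3. The ranges overlapped through knockout library 2 and wild-type library 2. Tbx15 had a log2 fold change of 0.18 (SE 0.14, 95% interval -0.14 to 0.49).

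Of 17 T-box family genes listed, 8 did not pass the filter on low counts. Of those that passed, leaving Tbx1 aside as chosen for its difference, 0 of 8 were called. Tbx21, a T-box factor of lymphocytes, reached at most 0.51 FPKM and had a log2 fold change of -0.80 (SE 0.37), Tbx4 of 0.17 (SE 0.18) and Tbx3 of -0.22 (SE 0.28). Tbx15 is also made by connective tissue cells, whose 6 markers summed to 168 to 325 FPKM in knockout libraries, against 135 to 314 FPKM in wild-type ones, with none at 0 in all libraries; their part in the Tbx15 values was not tested.

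**Figure D2:**
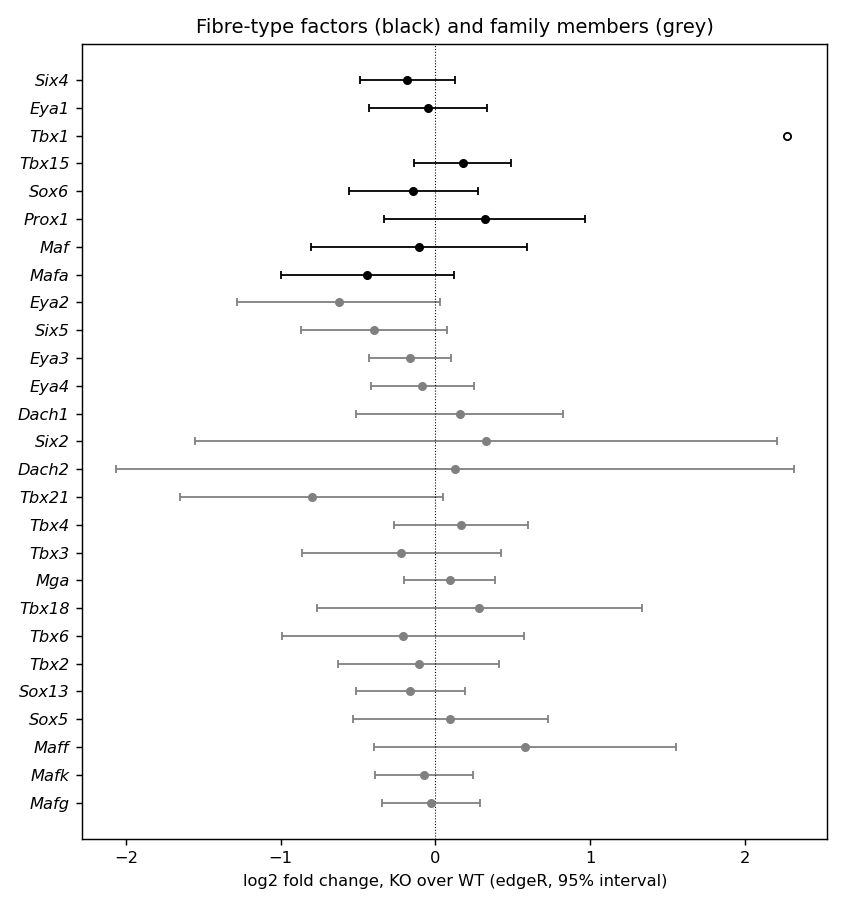
Log2 fold change, knockout over wild type, of the 8 fibre-type factors (black) and tested members of their families reported here (grey), fitted to counts with edgeR; bars are 95% intervals and Tbx1 (open circle) is drawn without one because it was picked for its difference. The intervals of the other 7 factors all include 0, as do those of the family members drawn.

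Sox6, an HMG-box protein that represses slow-fibre genes in mouse (chromosome 7, 115470872 to 116038796, minus strand), showed overlapping genotypes. Knockout libraries 1, 2 and 3 had 31.29, 35.55 and 37.78 FPKM, and wild-type libraries 1, 2 and 3 had 36.61, 41.79 and 32.81 FPKM. The lowest value was that of knockout library 1 and the highest that of wild-type library 2. Sox6 had a log2 fold change of -0.14 (SE 0.18, 95% interval -0.56 to 0.27), and 0.02 without knockout library 1. Its SoxD relatives Sox13 and Sox5 gave log2 fold changes of -0.16 (SE 0.15) for the first and 0.10 (SE 0.27) for the second, and 0 of the 3 were called.

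Prox1, a homeodomain protein required for the slow programme, was the least abundant of the 8. The gene lies on the minus strand of chromosome 1 at 190118035 to 190170714. Its level was 1.27, 0.96 and 0.59 FPKM in knockout libraries 1, 2 and 3, against 1.01, 0.54 and 0.68 FPKM in wild-type libraries 1, 2 and 3. These levels rest on 144, 132 and 74 counts in the knockout and 124, 70 and 85 counts in wild type. The highest value was 2.35 times the lowest over the 6 libraries, and the groups overlapped. Prox1 had a log2 fold change of 0.32 (SE 0.28, 95% interval -0.33 to 0.97), with 0.14 when wild-type library 2 was left out and 0.54 when wild-type library 1 was.

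Prox1 also marks lymphatic endothelium, whose 6 markers summed to 10.3 to 18.5 FPKM in knockout libraries, against 7.77 to 14.2 FPKM in wild-type ones. None of the 6 was at 0 in all libraries, and knockout library 1 held the highest Lyve1, at 4.32 FPKM against 1.22 to 1.53 in the other 5. Their part in the Prox1 values was not tested. In bulk samples, fewer cells of a type and less RNA per cell cannot be told apart.

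Maf, a large Maf protein of the bZIP class (chromosome 8, 115682942 to 115707794, minus strand), was the most abundant factor by its mean in both genotypes. It was at 52.83, 101.17 and 94.93 FPKM in knockout libraries 1, 2 and 3, against 84.05, 92.2 and 87.13 FPKM in wild-type libraries 1, 2 and 3. Knockout library 1 was lower than all other libraries, and knockout libraries 2 and 3 were higher than all wild-type libraries. The log2 fold change of -0.11 (SE 0.30, 95% interval -0.80 to 0.59) therefore turned to 0.20 without knockout library 1. The coefficient of variation was 31.7% in the knockout and 4.69% in wild type.

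Mafa, its relative (chromosome 15, 75745490 to 75748228, minus strand), had the lowest mean relative to wild type of the 8. Its level was 35.34, 45.26 and 59.74 FPKM in knockout libraries 1, 2 and 3, against 64.66, 62.74 and 58.94 FPKM in wild-type libraries 1, 2 and 3. Knockout libraries 1 and 2 lay below all wild-type libraries and knockout library 3 lay among them. Knockout libraries averaged 46.8 ± 12.3 FPKM against 62.1 ± 2.91 FPKM for wild-type libraries (SD, n = 3 each). Mafa had a log2 fold change of -0.44 (SE 0.24, 95% interval -0.9994 to 0.12, unadjusted p = 0.106 by edgeR), and it was -0.20 without knockout library 1 and -0.72 without knockout library 3.

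Maf is also made by macrophages, whose 6 markers summed to 10.5 to 33.3 FPKM in knockout libraries, highest in library 1, against 10.6 to 15.03 FPKM in wild-type ones. None of the 6 was at 0 in all libraries. Their part in the Maf values was not tested. Among the small Maf genes, Maff and Mafk gave log2 fold changes of 0.58 (SE 0.42) for the first and -0.07 (SE 0.14) for the second, and 0 of the 6 tested Maf genes were called.

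**Figure D3:**
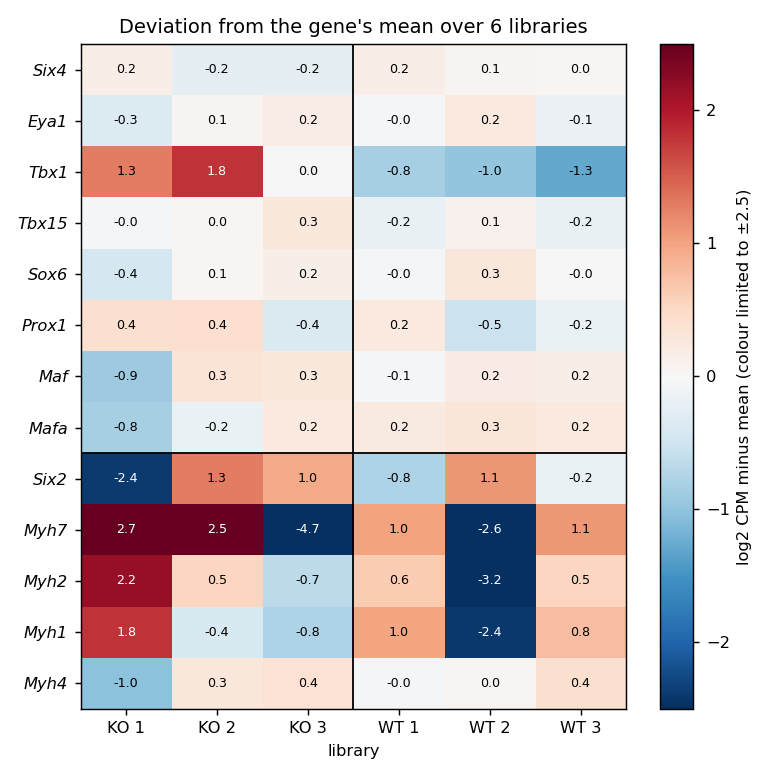
Deviation of each gene's log2 CPM from its mean over the 6 libraries, for the 8 factors (upper block) and for Six2 and the myosin heavy chains (lower block), with knockout libraries left and wild-type libraries right. Maf, Mafa, Six2 and Myh4 are lowest in knockout library 1, where Myh7, Myh2 and Myh1 are highest.

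Levels of the slow and intermediate myosin genes differed widely between libraries of the same genotype. Myh7 was at 277.22, 196.42 and 1.34 FPKM in knockout libraries 1, 2 and 3, against 76.52, 5.71 and 71.59 FPKM in wild-type libraries 1, 2 and 3, a 207-fold range. Myh2 and Myh1 ranged 51.6-fold and 23.0-fold over the 6 libraries, and Myh4 2.09-fold. Antisense genes overlap Myh7, Myh2 and Myh1, and how the counting treated strand is not stated in the labels. Of 18 slow-fibre genes tested 17 had a log2 fold change above 0, with a median of 1.24, and of 20 fast-fibre genes 18 had one below 0, with a median of -0.21; 0 genes of either list were called.

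The slow-fibre level, the mean log2 CPM of these 18 slow-fibre genes, was 6.96, 6.48 and 3.33 in knockout libraries 1, 2 and 3 and 5.58, 3.21 and 5.35 in wild-type libraries 1, 2 and 3. Knockout library 3 and wild-type library 2 thus lay well below the other 4 libraries. Because the libraries fell into these separate sets, no pooled correlation with this level is given, and the values are set side by side instead.

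Prox1 was lowest in the same pair of libraries, at a log2 CPM of 2.17 in knockout library 3 and 2.01 in wild-type library 2. It was 2.93 and 2.96 in knockout libraries 1 and 2, and 2.78 and 2.36 in wild-type libraries 1 and 3. The 6 markers of blood endothelium also had their lowest sums in knockout library 3 and wild-type library 2. These were 58.6 and 60.1 FPKM, against 83.4 to 140 FPKM in the rest. The part of either set of genes in the Prox1 values was not tested. Mafa followed exactly the reverse order of the slow-fibre level on the scale of log2 CPM, with 4.99 and 5.65 in knockout libraries 1 and 2 at the low end and 6.12 in wild-type library 2 at the top, but the 4 highest libraries differed only between 6.04 and 6.12. On the FPKM scale wild-type library 1 was the highest, so this order did not hold there. Sox6 had its lowest log2 CPM, 7.81, in knockout library 1, which had the highest slow-fibre level, and its highest values, 8.40 and 8.53, in knockout library 3 and wild-type library 2. Eya1 likewise was highest in those libraries, at 5.24 and 5.30, and lowest in knockout library 1, at 4.71.

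Tbx1 values of 1.33, 1.16 and 0.87 in wild-type libraries 1, 2 and 3 were not in the order of the slow-fibre level. They rest on 44, 38 and 29 counts, so their order is uncertain. In the knockout Tbx1 was 3.43 and 3.95 in libraries 1 and 2, which had high slow-fibre levels. It was 2.15 in library 3, which had a low one. Knockout library 3 and wild-type library 2 had like slow-fibre levels, of 3.33 and 3.21. Tbx1 was 2.15 in the first and 1.16 in the second, an order fixed in advance by the rule that picked it. Maf was lowest in knockout library 1, at 7.35, as was Myh4, at 15.1, whereas the other 5 libraries lay between 8.21 and 8.60 for Maf and between 16.1 and 16.5 for Myh4.

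**Figure D4:**
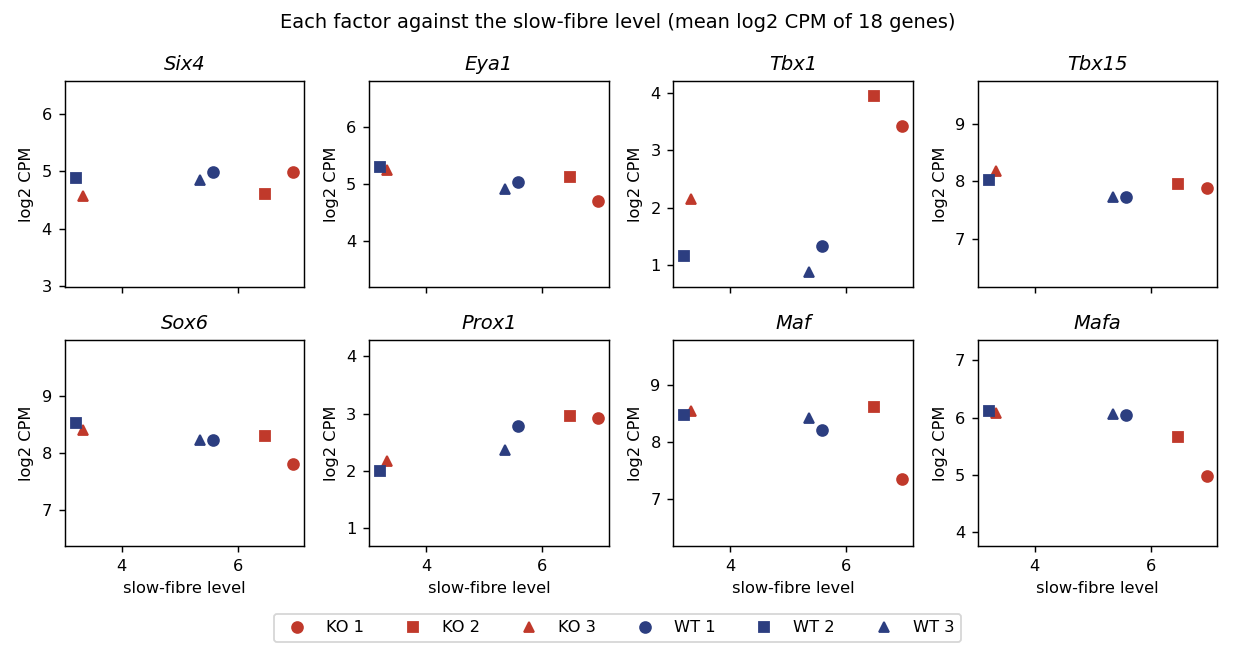
Log2 CPM of each factor against the slow-fibre level (mean log2 CPM of 18 slow-fibre genes) in the 6 libraries, knockout in red and wild type in blue, with every vertical axis spanning the same range. Knockout library 3 and wild-type library 2 sit at the low end, at 3.33 and 3.21, where Prox1 is lowest and Sox6 highest.

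The start windows of the slow and the fastest myosin genes are shown because they are the contractile genes that Sox6 and the large Maf proteins are known to act on. Capitals mark the same 4 motifs, and no 2 matches overlap.
Myh7 (chr14:54994577-54994876, minus strand): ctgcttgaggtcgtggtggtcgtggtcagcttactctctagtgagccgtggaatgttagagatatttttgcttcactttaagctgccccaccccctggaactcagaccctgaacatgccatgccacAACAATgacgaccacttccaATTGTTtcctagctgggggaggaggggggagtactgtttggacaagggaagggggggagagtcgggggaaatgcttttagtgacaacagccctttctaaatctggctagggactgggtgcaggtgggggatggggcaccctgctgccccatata
Myh4 (chr11:67237562-67237861, plus strand): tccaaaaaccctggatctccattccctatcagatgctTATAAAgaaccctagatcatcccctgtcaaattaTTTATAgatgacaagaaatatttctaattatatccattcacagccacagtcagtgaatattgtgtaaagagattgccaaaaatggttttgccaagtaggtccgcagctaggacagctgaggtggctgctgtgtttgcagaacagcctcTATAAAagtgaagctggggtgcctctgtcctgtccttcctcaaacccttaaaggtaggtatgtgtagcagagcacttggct
The Myh7 window printed holds 2 SOX sites, with first bases at -124 and -104, and such a site occurs in 10.7% of all start windows. RefSeq gives Myh7 another start, whose window is not printed and holds the same sites at -201 and -181. The Myh4 window holds 3 TATA boxes, the nearest at -31, and neither a SOX site nor a Maf core. A TATA box occurs in 13.6% and a Maf core in 19.5% of all start windows. RefSeq windows were matched for 4 of the 8 factors, namely Six4, Tbx1, Sox6 and Prox1.

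Counts, FPKM and library totals together imply an effective transcript length per gene, which moves when reads are assigned to longer or shorter isoforms. For Mafa, with 1 annotated transcript, it was steady at 1061 to 1062 bases in all 6 libraries. For Prox1 it was 7645 bases in knockout library 2 (7605 to 7684.5 given the rounding of FPKM) and between 6910 and 7008 bases in the other 5. As CPM before scaling, Prox1 was at 7.34 in knockout library 2 and 8.88 in knockout library 1, so the higher log2 CPM of library 2 came with the scaling factors, 0.957 for library 2 and 1.19 for library 1. For Tbx1 it was 1778, 1779 and 1805 bases in knockout libraries 1, 2 and 3 and 1823, 1833 and 1781 bases in wild-type libraries 1, 2 and 3, so the genotypes overlapped. For Six4 it ranged from 6428 to 6662 bases in the knockout and from 6401 to 6696 in wild type.

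Estimated counts of 5 factors, Six4, Eya1, Tbx15, Sox6 and Maf, were not whole numbers, so some of their reads fitted other transcripts too, and those of Tbx1, Prox1 and Mafa were whole. Antisense genes overlap Tbx15, Sox6, Prox1 and Maf, a microRNA gene overlaps Eya1 on the opposite strand, and no annotated gene overlaps Six4, Tbx1 or Mafa. Overlap was judged by gene span and not by exon. Without a statement on strand, whether reads of such overlapping pairs were mixed cannot be told.

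Among themselves, Eya1 and Sox6 had the most alike pattern of the 28 pairs over the 6 libraries (Pearson r of log2 CPM 0.95), followed by Sox6 and Maf at 0.90. The most unlike pair was Tbx1 and Mafa, at -0.76. These likenesses, and those that follow, are descriptions over 6 libraries of both genotypes. Every gene shares the differences between libraries in depth, in scaling factor and in fibre-type genes. Tbx1 was picked for a difference between genotypes, so its likenesses follow in part from that choice.

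Across genes with a mean of at least 1 FPKM, the patterns most like that of Tbx1 were those of Atp6v1a, a subunit of the vacuolar proton pump (r 0.99), B2m, the light chain of MHC class I (0.98), and Agtrap, an angiotensin receptor-associated protein (0.97). Atp6v1a was at 4.18, 3.45 and 3.0 FPKM in knockout libraries 1, 2 and 3. In wild-type libraries 1, 2 and 3 it was at 3.18, 2.95 and 2.83 FPKM, a far narrower range than that of Tbx1. B2m was at 96.65, 76.45 and 54.82 FPKM in knockout libraries 1, 2 and 3 and 57.26, 51.76 and 47.55 FPKM in wild-type libraries 1, 2 and 3. The nearest to Prox1 were Acss1, a mitochondrial acetyl-CoA synthetase, Sp3 and Slc9a3r1 (0.99, 0.99 and 0.98). The nearest to Mafa was Tcea3, a transcription elongation factor (0.999), to Eya1 Anapc16 (0.9955), to Maf Tial1 (0.996), to Tbx15 Mycbp (0.99) and to Six4 Zfp592 (0.99). Such values were common: 343 genes reached 0.95 or more with Sox6 and 10 with Tbx1. Pearson's r does not measure the size of a difference. Tial1 was at 10.55, 10.06 and 10.48 FPKM in knockout libraries 1, 2 and 3. In wild-type libraries 1, 2 and 3 it was at 10.93, 10.41 and 10.31 FPKM. Unlike Maf, Tial1 was thus nearly level on the FPKM scale and not lowest in knockout library 1.

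Of 33 other regulators of fibre type and muscle metabolism 32 were tested, and 0 were called, with 16 log2 fold changes above and 16 below 0 and a median of -0.0009 against 0.0046 over all genes. Tead4, a muscle TEAD factor, was at 4.20, 3.76 and 2.67 FPKM in knockout libraries 1, 2 and 3, against 2.70, 2.11 and 2.44 FPKM in wild-type libraries 1, 2 and 3. It did not pass (log2 fold change 0.48, SE 0.17, edgeR adjusted p = 0.994). Mef2c, Tead1 and Thra, a thyroid hormone receptor gene, came next, with a log2 fold change of 0.28 (SE 0.13) for Mef2c, 0.26 (SE 0.14) for Tead1 and -0.22 (SE 0.13) for Thra. These 4 had the smallest p of the list, and none passed.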

How the data were processed

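RNA-seq of gastrocnemius from tmem182-/- and wild-type mice was used, 3 libraries each, grouped by the titles; the protocol text speaks of cultured muscle cells and the tissue label was followed. Per the file headers, the deposited tables give expected counts (26.2% to 27.5% not whole) and FPKM by the authors, given to 2 decimals. The aligners HISAT2 2.0.4 and Bowtie2 2.2.5, the quantifier RSEM 1.2.12 and the build GRCm38 are named, per the submitters' processing notes. How they were combined, the annotation and the handling of strand are not given in those notes as held here. Expected counts were rounded to whole numbers.

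Genes passing filterByExpr (minimum count 10) were scaled by TMM and tested in edgeR 4.0.16 under R 4.3.3 by quasi-likelihood, two-sided. P-values were adjusted by Benjamini and Hochberg's method over the 12774 genes, with a threshold of 0.05; the script was tested on simulated data. SE is the absolute log2 fold change over the square root of F, and log2 CPM used a prior count of 2. Alternatives used DESeq2 1.42.0 and limma 3.58.1. Groups of 3 against 3 cannot go below p = 0.1 in an exact permutation test, so none is given. The members and lists were chosen with earlier results of these data known. Named were all members, Tmem182, up to 4 genes with the smallest p of each family list, the myosins and the 3 genes most like each member, of which the nearest are printed; some items are not reported here. Correlations of the factors with the slow-fibre level had been planned and were computed once; Prox1 alone passed, by Pearson's r, and lost the call in every other setting tried. They were then left out, with their alternatives, because the libraries fall into separate sets on that level. Positions are from GENCODE M21 and start windows from RefSeq, GRCm38.p6.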

Additional observations from a re-analysis of the deposited data

How the results depend on the processing

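Results were recomputed with a replicate block, without each library in turn, unfiltered, on genes averaging 1 FPKM or more, with size factors from DESeq2 in place of TMM, by the Wald test of DESeq2 and by limma on log2(FPKM + 1) or log2(FPKM + 0.1). The number of the 7 tested factors called was 0 in each. Over all genes, edgeR called 1 and the DESeq2 Wald test 6; leaving out 1 library gave 0 to 1, with 0 without knockout library 2 or wild-type library 3. The log2 fold change of Eya1 turned over without knockout library 1 (0.0938) and wild-type library 2 (0.0688) and in limma with a pseudocount of 1 (0.0137) or 0.1 (0.0163), that of Sox6 (0.0157) and Maf (0.20) without knockout library 1; the cause was not tested. Ranges over the left-out libraries were -0.16 to 0.09 for Eya1, -0.26 to 0.02 for Sox6 and -0.31 to 0.20 for Maf. Six4, Tbx15, Prox1 and Mafa kept their direction in every alternative that tested them; Prox1 was not tested under the filter on FPKM. Tbx1 ranged from 1.56 in limma on log2(FPKM + 1) to 2.63.

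Over all genes 51.1% of log2 fold changes were above 0 on scaled counts, against 65.8% and 65.2% by limma with a pseudocount of 1 and 0.1.

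Samples share replicate numbers but not a stated animal, litter or day. Deviations of same-numbered libraries had correlations of 0.52, 0.18 and -0.12, against -0.47 to 0.43 for pairs of unlike number. The first was the highest of all pairs and the last was below 0, so this check cannot show whether the numbers pair libraries. With the replicate block, edgeR called 1 gene, and the log2 fold change was 2.17 for Tbx1 and -0.50 for Mafa. Depth limits Prox1 and wild-type Tbx1 most, with 29 to 144 counts per library.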
